A study of Mus musculus with 5 samples.

Results

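The 10 genes described here are Nupr1 and 9 genes of the integrated stress response (Atf4, Atf5, Ddit3, Ddit4, Trib3, Asns, Chac1, Sesn2 and Ppp1r15a), taken by symbol from the 31053 genes of the count matrices. All 10 were found. Lungs of β1fl/fl mice and β1AT2-KO mice were dissociated, CD45- Ter119- viable cells were sorted, and single-cell RNA was counted as unique molecular identifiers (UMIs) with a 10x Genomics 5′ kit. β1AT2-KO mice carried SP-C rtTA, Tet-O-Cre and floxed alleles of Itgb1, the β1 integrin gene, so that Cre was driven by the surfactant protein C promoter under doxycycline. β1fl/fl mice were littermates with the floxed alleles and neither transgene. All mice were C57BL/6 adults that had received doxycycline in drinking water followed by a month without it, and were then given intratracheal LPS, a bacterial endotoxin that injures the lung, or PBS. The groups were β1fl/fl after LPS and β1AT2-KO after LPS at 7 and at 21 days, and β1AT2-KO after PBS at 7 days. Each of the 5 groups was 1 library that pooled mice marked with hashtags. In each library 3 hashtags were in use, and the cells of 1 hashtag are called a mouse here, although the number of mice behind them was not measured. Library and group cannot be told apart, and a p-value measures the spread between hashtags within libraries. The day 21 libraries were enriched for CD326+ (EPCAM+) cells.

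Of 39503 barcodes, 29500 cells had at least 700 genes and 0.1 to 15% mitochondrial UMIs. Cell types were gated on marker UMIs. AT2 cells, the surfactant-making alveolar type 2 cells (1916 in all), had Sftpc at 5% or more of UMIs, at least 1 Epcam UMI and no Cdh5, Pecam1 or Col1a2. Endothelial cells (21327) had at least 2 UMIs of Cdh5 and Pecam1 together and none of Epcam or Col1a2. Mesenchymal cells (1547) had at least 2 UMIs of Col1a2 and none of Cdh5, Pecam1 or Epcam. Sftpc was not limited in the endothelial and mesenchymal gates. Those marker values chose the cells, while the 10 genes were chosen by name with earlier results of these data known. The AT2 libraries held 119 (β1fl/fl day 7), 355 (β1AT2-KO LPS day 7), 26 (β1AT2-KO PBS), 176 (β1fl/fl day 21) and 1240 (β1AT2-KO day 21) cells. In the same order, 0, 4, 1, 4 and 7 of them had Sftpc between 5 and 6% of UMIs, and 0, 4, 0, 0 and 2 cells with Epcam lay just outside, between 4 and 5%. Of 8 independent AT2 markers (Sftpa1, Sftpb, Sftpd, Lamp3, Abca3, Slc34a2, Napsa and Etv5), all had UMIs in the AT2 gate of each library, with a summed level of 50693 to 59582 CPM (UMIs per 1000000 UMIs). The same list summed to between 86.7 and 3120 CPM in the other gates.

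Some libraries stood apart. In kept cells, Xist and Y-linked RNA divided the mice by sex: the 3 β1fl/fl mice of day 7 were Xist-positive and the 3 β1AT2-KO LPS mice of day 7 carried Y-linked RNA, so sex and genotype cannot be told apart at day 7. Hashtag 1 of the β1fl/fl library at day 21 held both kinds of RNA, Xist at 92.5 CPM and Y-linked RNA at 83.2 CPM, so it may not be 1 mouse. The other day 21 β1fl/fl mice (2 and 3) and β1AT2-KO mouse 1 held mainly Xist RNA, and β1AT2-KO mice 2 and 3 mainly Y-linked RNA. After PBS, mouse 1 held mainly Xist RNA and mice 2 and 3 mainly Y-linked RNA. Sex was thus unbalanced between genotypes at day 21 and between LPS and PBS, and its part in those differences was not tested. Pairs of libraries shared between 0.674% and 1.41% of the barcodes of the smaller library. Itgb1 itself in AT2 cells was 258, 235 and 305 CPM in the β1fl/fl mice of day 7 and 214, 150 and 193 CPM in the β1AT2-KO mice. At day 21 it was 356, 319 and 372 CPM against 141, 178 and 146 CPM. The log2 fold change was -0.64 (SE 0.18, edgeR adjusted p = 0.0900) at day 7 and -1.29 (SE 0.12, adjusted p = 1.14e-07) at day 21, so the check of the targeted gene passed the threshold at day 21 and not at day 7, where the 2 groups did not overlap.

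The integrated stress response begins when kinases that sense amino acid shortage, unfolded protein, heme loss or double-stranded RNA phosphorylate eIF2α, which lowers general translation and raises translation of Atf4 mRNA. The transcription factor ATF4 then acts with partners at C/EBP-ATF response elements, and its targets include genes for amino acid supply, regulators of mTORC1 and, when stress lasts, the factor CHOP, encoded by Ddit3. Nupr1 encodes a small stress-induced chromatin protein and is among the genes that ATF4 can induce.

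Promoters were examined because the genes are grouped by a shared transcription factor. In RefSeq windows of GRCm38.p6 (250 bases before to 50 after each start), the core TGATGNAA, searched on both strands, was present in 4 of the 10 genes and in 3.97% of 32851 windows. It lay 110 bases before the Nupr1 start, 193 bases before the Chac1 start and 23 bases before the Asns start, and 14 bases after the Trib3 start. The upstream matches are printed 5′ to 3′ on the strand of the gene, with the matching letters in capitals, to show that Nupr1 and Chac1 carry the reverse complement of the core and Asns the core itself. They were read at chr7:126625547-126625606 (Nupr1, minus strand), chr2:119351023-119351082 (Chac1, plus strand) and chr6:7693210-7693258 (Asns, minus strand).
Nupr1: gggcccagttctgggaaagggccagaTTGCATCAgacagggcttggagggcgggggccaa
Chac1: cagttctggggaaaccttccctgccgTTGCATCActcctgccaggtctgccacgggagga
Asns: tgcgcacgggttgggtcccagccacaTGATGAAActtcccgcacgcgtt
A match describes letters in the window and not a bound site. In the GENCODE annotation of GRCm38, Nupr1 (ENSMUSG00000030717) lies at chr7:126623249-126630861 on the minus strand and Ppp1r15a (ENSMUSG00000040435) at chr7:45522916-45526268 on the minus strand. The RefSeq window of Nupr1 (chr7:126625421-126625720) lies inside its GENCODE span, so the start used here is not the 5′ end of that span. Atf5, Ppp1r15a and Ddit3 overlap genes on the opposite strand (Nup62 and Il4i1, Tulp2, and Mars), and whether reads were counted by strand is not given in the sources used here.

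Nupr1 differed most plainly among cell types. Its library level was 229 to 700 CPM in AT2 cells, 586 to 945 CPM in mesenchymal cells and 5.36 to 29.8 CPM in endothelial cells. AT2 cells exceeded endothelial cells in each of 12 mice with at least 10 cells of each type, and mesenchymal cells exceeded AT2 cells in each of 11 mice. In the day 7 β1fl/fl library, 88.2% of AT2 cells had a Nupr1 UMI (exact binomial 95% interval 81.0 to 93.4%, median 8947 UMIs per cell), against 4.84% of endothelial cells (4.33 to 5.39%, median 2428.5 UMIs). With every cell reduced at random to 2000 UMIs and shallower cells left out (2 AT2 and 2515 endothelial), the shares became 60.7% (51.2 to 69.6%) and 3.28% (2.75 to 3.88%). Such intervals cover counting error only.

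The other genes had different orders. Sesn2, which encodes an amino acid-responsive restrainer of mTORC1, was 21.9 to 31.2 CPM in AT2 cells and above both other types in all 5 libraries, with a mean over mice of 24.3 CPM against 3.47 CPM in endothelial cells. Atf5, an ATF4-related transcription factor gene, was highest in mesenchymal cells in all 5 libraries (79.6 to 174 CPM, against 7.79 to 32.6 CPM in AT2 cells). Atf4 was higher in endothelial (137 to 297 CPM) than in mesenchymal cells (83.2 to 150 CPM) in all 5 libraries, and AT2 cells had the lowest level in all 5 (76.2 to 140 CPM), although 2 of 11 mice placed AT2 above mesenchymal cells. Asns, the asparagine synthetase gene, was highest in endothelial cells in each library (23.1 to 36.6 CPM). Ddit3 in AT2 cells (12.4 to 24.7 CPM) and endothelial cells (13.1 to 22.8 CPM) had no fixed order, with AT2 cells higher in 6 of 12 mice, while mesenchymal cells were highest in all 5 libraries (24.3 to 47.5 CPM). Ddit4, which encodes a stress-induced inhibitor of mTORC1, was above mesenchymal cells in endothelial cells in all 5 libraries. Ppp1r15a, the gene for the stress-induced subunit that directs a phosphatase to eIF2α, was higher in endothelial than in AT2 cells in 11 of 12 mice (means 448 and 263 CPM) and in 3 of 5 libraries, with AT2 cells at 349 against 326 CPM and 282 against 280 CPM in the other two. Trib3, a pseudokinase gene induced by ATF4, and Chac1, a glutathione-degrading enzyme gene, had no more than 19.4 CPM in any gate.

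**Figure D1:**
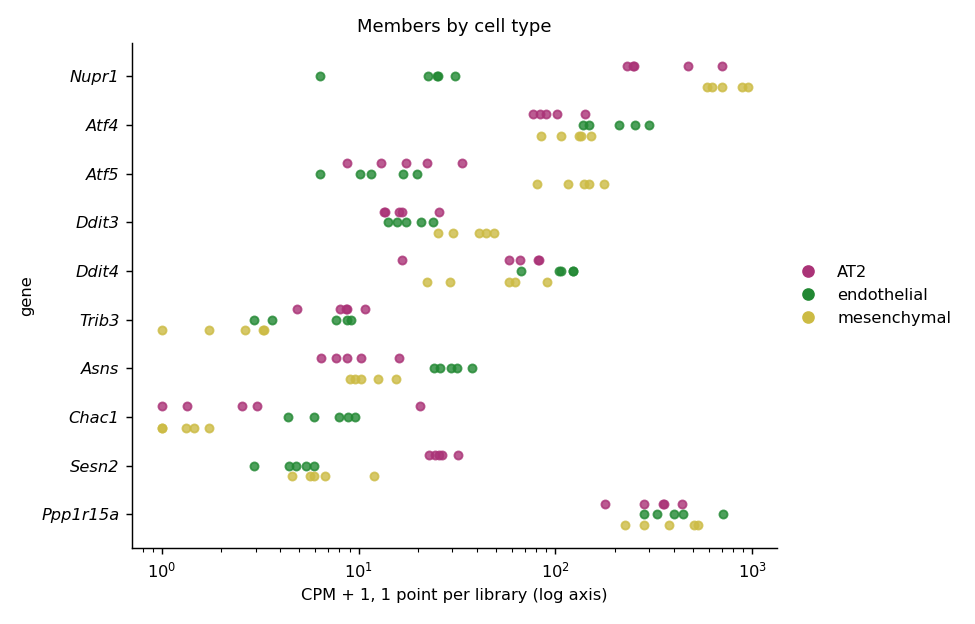
Level of each gene in the AT2, endothelial and mesenchymal gates, as CPM + 1 on a log axis, with 1 point for each of the 5 libraries. Nupr1 in endothelial cells (5.36 to 29.8 CPM) sits far to the left of AT2 and mesenchymal cells, and Sesn2 in AT2 cells to the right of both others.

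The first comparison asked whether loss of β1 integrin in AT2 cells went with a difference in these genes 7 days after LPS. Nupr1 was lower in β1AT2-KO AT2 cells. It was 736, 772 and 762 CPM in the 3 β1fl/fl mice (54, 20 and 17 cells) and 184, 259 and 278 CPM in the 3 β1AT2-KO mice (41, 101 and 58 cells). The groups did not overlap, and the lowest β1fl/fl mouse was above every β1AT2-KO mouse. The means were 757 ± 18.5 and 241 ± 49.999 CPM (SD, n = 3 each), the exact two-sided permutation p was 0.1, the smallest that 3 against 3 allows, and the edgeR log2 fold change was -1.72 (SE 0.18, adjusted p = 6.15e-06 over 5086 genes).

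At day 21 Nupr1 was again lower in β1AT2-KO AT2 cells. The β1fl/fl mice had 567, 426 and 437 CPM (33, 32 and 67 cells) and the β1AT2-KO mice 249, 242 and 230 CPM (266, 251 and 302 cells). Here too the groups did not overlap, with the β1AT2-KO mice close together. The fold change was -1.09 (SE 0.11, edgeR adjusted p = 1.06e-06), and the exact permutation p was 0.1. Hashtag 1 of the β1fl/fl library, which held cells of both sexes, was the highest, and without it the log2 fold change was -0.95 (adjusted p = 5.11e-06). The β1AT2-KO mouse with mainly Xist RNA (mouse 1, 249 CPM) was below the 2 other β1fl/fl mice, which were Xist-positive. It is a single mouse, and the part of sex in the Nupr1 difference was not tested. The difference of the fold changes between the days, a comparison added after the data were seen, was 0.61 (SE 0.21) and did not pass (adjusted p = 0.236).

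Uninjured β1AT2-KO AT2 cells were few (26, of which 15 had a single hashtag), so no test was made against them. Their Nupr1 level was 249 CPM (exact Poisson 95% interval 192 to 318) beside 247 CPM (229 to 266) in the β1AT2-KO library after LPS. The log2 ratio of LPS to PBS was -0.03, with a counting interval from -0.39 to 0.38. By hashtag the PBS mice had 259, 269 and 248 CPM, from 4, 2 and 9 cells. β1fl/fl lungs after PBS were not analysed here.

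Other RNA in the AT2 gate also differed at day 7. The 4 AT1 markers (Ager, Hopx, Rtkn2 and Aqp5, which mark alveolar type 1 cells) summed to 1234, 1358 and 1590 CPM in β1fl/fl and 2717, 1976 and 2245 CPM in β1AT2-KO mice. The 8 mesenchymal markers summed to 28.6 to 43.2 CPM against 80.1 to 129 CPM. The 8 AT2 markers were lower, at 57123, 59039 and 63291 CPM in β1fl/fl and 56171, 50634 and 48967 CPM in β1AT2-KO mice. Ciliated cell markers (Foxj1, Dynlrb2, Ccdc153 and Tppp3) summed to 23.8 to 53.1 CPM against 66.6 to 112 CPM. None of these lists overlapped between the groups, while the endothelial, immune, club and red cell lists did. The part of such RNA in the Nupr1 difference was not tested. At day 21 the AT1, mesenchymal, AT2 and ciliated lists all overlapped, with AT1 markers at 1704 to 1902 CPM in β1fl/fl and 1670 to 1861 CPM in β1AT2-KO mice.

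The share of AT2 cells with Nupr1 followed the same direction at equal depth. Thinned to 2000 UMIs per cell, 60.7% of β1fl/fl and 29.4% (24.7 to 34.5%) of β1AT2-KO AT2 cells had a UMI at day 7, and 51.4% (43.8 to 59.0%) and 28.1% (25.6 to 30.7%) at day 21. Unthinned shares were 88.2% and 53.8% at day 7, and 88.1% and 63.2% at day 21. Leaving the surfactant protein genes Sftpc, Sftpa1, Sftpb and Sftpd, with Lyz2 and Scgb1a1, out of the totals changed the ratios little. The log2 ratio of libraries was -1.54 at day 7 and -1.11 at day 21, beside -1.51 and -1.04 with them.

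**Figure D2:**
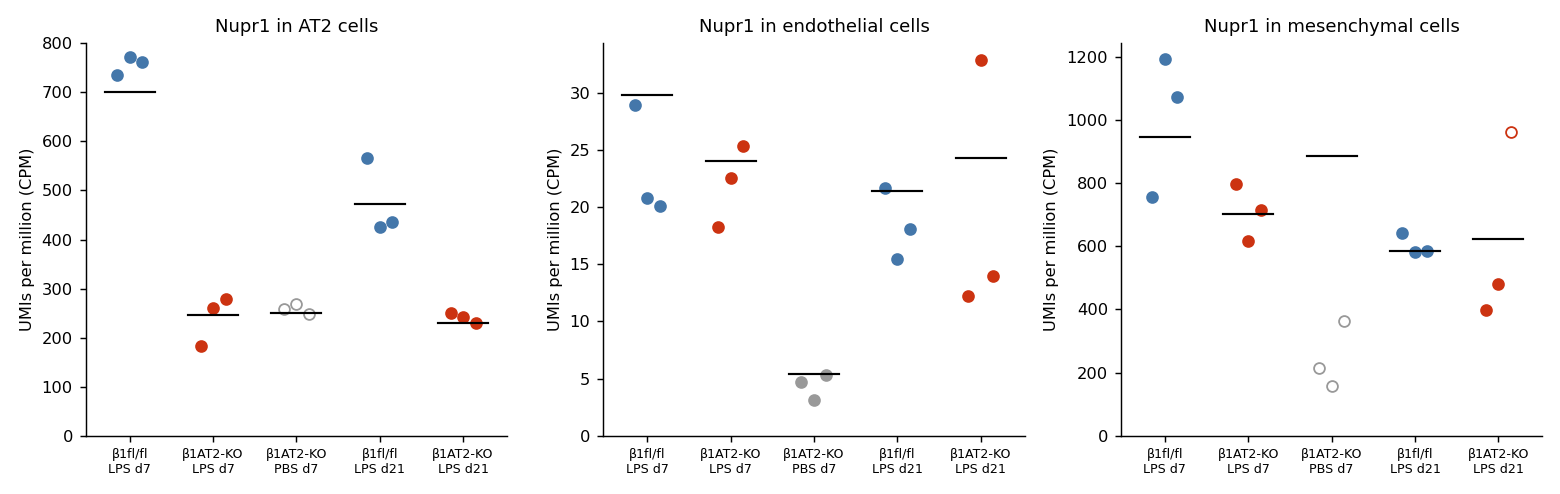
Nupr1 in CPM for each hashtagged mouse (points) and each whole library (black lines) in AT2, endothelial and mesenchymal cells, by group. Open points rest on fewer than 10 cells. The β1fl/fl AT2 points (426 to 772 CPM) lie above the β1AT2-KO AT2 points (184 to 278 CPM), and the endothelial panel spans a far lower range.

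In endothelial cells of the same mice, where the SP-C promoter is not active, Itgb1 had a log2 fold change of 0.02 at day 7 and 0.12 at day 21. Nupr1 in these cells was 28.9, 20.8 and 20.1 CPM in β1fl/fl and 18.2, 22.6 and 25.3 CPM in β1AT2-KO mice at day 7, with overlapping groups and a log2 fold change of -0.10 (SE 0.18, edgeR adjusted p = 0.836). In a fit that kept the mouse as a block, the AT2 difference exceeded the endothelial one by -1.57 at day 7 (SE 0.21, adjusted p = 1.43e-10). In the same fit 5 of 8 immediate early and heat shock genes were also lower and none higher, beside 1.25% of all genes called. Their median was -0.86, against 0.06 over all genes. Dissociation can induce these genes, and their part in the Nupr1 difference was not tested. At day 21 endothelial Nupr1 alone did not pass the filter on low counts, with 50 UMIs in the β1AT2-KO and 65 in the β1fl/fl library. It entered the fit of both cell types, which filtered their counts together. There the excess was -1.36 (SE 0.39, adjusted p = 0.0340). The call was lost without β1AT2-KO mouse 2, whose endothelial Nupr1 (32.9 CPM) was the highest of its group (excess -0.65, adjusted p = 0.805). Leaving out any β1fl/fl mouse of day 21 also ended that call, with adjusted p between 0.0591 and 0.0762. Sftpc RNA in endothelial cells was 14013 to 16238 CPM in the β1AT2-KO mice of day 21 and 2280 to 4532 CPM in the β1fl/fl mice, and its part in the endothelial Nupr1 level was not tested. In mesenchymal cells Nupr1 had a log2 fold change of -0.45 (SE 0.22, adjusted p = 0.885) at day 7 and -0.46 (SE 0.30, adjusted p = 0.561) at day 21, where β1AT2-KO mouse 3 was left out for having 8 cells, which leaves 2 mice against 3. Over all gated mesenchymal cells of day 21, with or without a hashtag, the log2 ratio of the libraries went the other way (621 against 586 CPM, 0.09, counting interval -0.10 to 0.26).

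Of the 10 genes, 6 could be tested in AT2 cells at day 7 and Nupr1 alone passed, beside 1.61% of all genes tested. At day 21, 9 were tested and 2 passed (Nupr1 lower, Ppp1r15a higher), beside 3.75% of all genes. The median log2 fold change over the genes tested was -0.39 at day 7 and 0.10 at day 21, with 0.00 over all genes on both days.

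Ppp1r15a had opposite differences in AT2 and endothelial cells at day 21. In AT2 cells it was 153, 194 and 175 CPM in β1fl/fl and 347, 307 and 341 CPM in β1AT2-KO mice, so that each β1AT2-KO mouse was above each β1fl/fl mouse. The log2 fold change was 0.82 (SE 0.12, edgeR adjusted p = 0.000149). In endothelial cells it was 812, 794 and 682 CPM in β1fl/fl and 399, 439 and 426 CPM in β1AT2-KO mice, with each β1AT2-KO mouse below each β1fl/fl mouse. That log2 fold change was -0.83 (SE 0.11, adjusted p = 0.000189), and the difference between the cell types was 1.62 (SE 0.18, adjusted p = 2.32e-13). Both exact permutation p-values were 0.1. Of 8 immediate early and heat shock genes that dissociation can induce, 3 were higher and none lower in AT2 cells at day 21. The share of all genes called there was 3.75%. In endothelial cells 4 were lower and none higher, beside 1.78% of all genes. In the fit of AT2 against endothelial cells 4 were higher, beside 2% of all genes, and Junb had 1.30 (adjusted p = 4.23e-10). The part of these 8 genes in the Ppp1r15a differences was not tested.

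At day 7 Ppp1r15a in AT2 cells was 466, 198 and 252 CPM in β1fl/fl and 202, 300 and 224 CPM in β1AT2-KO mice. The groups overlapped, with β1fl/fl mouse 1 highest, and the log2 fold change was -0.50 (SE 0.24, edgeR adjusted p = 0.405). It was 0.05 without β1fl/fl mouse 1 and passed at -0.93 (adjusted p = 0.0269) under a stricter hashtag threshold. The signed log2 fold change in AT2 cells at day 21 minus that at day 7 was 1.33 (SE 0.28, edgeR adjusted p = 0.0213, a comparison added after the data were seen). That call was lost without β1fl/fl mouse 1 of day 7 (0.77, adjusted p = 0.343) and also without β1fl/fl mouse 1 or mouse 3 of day 21 or β1AT2-KO mouse 1 of day 7. Of the 7 genes tested for that difference, Ppp1r15a alone passed, beside 0.63% of all genes.

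**Figure D3:**
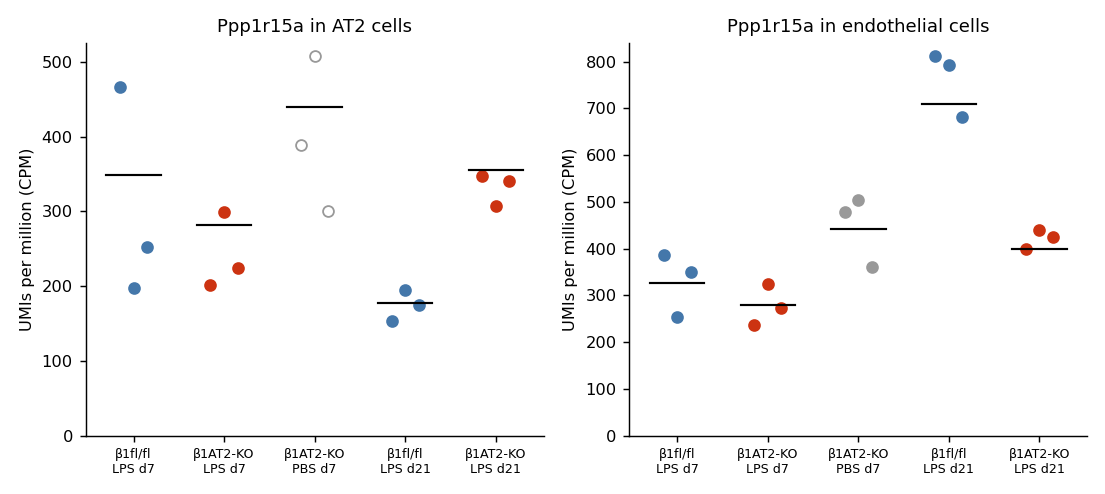
Ppp1r15a in CPM for each hashtagged mouse (points) and each whole library (black lines) in AT2 and endothelial cells. Open points rest on fewer than 10 cells. At day 21 the β1AT2-KO points lie above the β1fl/fl points in AT2 cells and below them in endothelial cells.

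Atf4, the central factor gene, was 108, 43.2 and 109 CPM in β1fl/fl AT2 cells at day 7 and 68.2, 92.8 and 79.3 CPM in β1AT2-KO AT2 cells. The groups overlapped, with β1fl/fl mouse 2 lowest (log2 fold change -0.28, SE 0.25, edgeR adjusted p = 0.741). At day 21 it was 89.7, 78.3 and 78.0 CPM against 99.1, 93.2 and 102 CPM. The groups did not overlap, the means differed 1.19-fold, and the log2 fold change of 0.16 (SE 0.15, adjusted p = 0.663) did not pass. Atf4 mRNA does not measure its translation, the step at which the pathway acts.

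Atf5 in AT2 cells rested on few UMIs. At day 7 there were 19, 3 and 13 UMIs in the β1fl/fl mice and 3, 10 and 5 in the β1AT2-KO mice, equal to 37.4, 18.5 and 61.9 CPM against 8.90, 11.9 and 9.67 CPM. Each β1fl/fl mouse was above each β1AT2-KO mouse, but the gene did not pass the filter on low counts. Without the filter its log2 fold change was -1.93 (SE 0.45, edgeR adjusted p = 0.00267), and it passed the filter and the test without β1fl/fl mouse 2 (-2.16, adjusted p = 0.0147). At day 21 it was -0.51 (SE 0.30, adjusted p = 0.438), with overlapping mice.

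Ddit3 was 29.5, 24.7 and 33.3 CPM in β1fl/fl and 23.7, 11.9 and 3.87 CPM in β1AT2-KO AT2 cells at day 7, from 2 to 15 UMIs per mouse. The groups did not overlap, although the lowest β1fl/fl and the highest β1AT2-KO mouse were close, and the log2 fold change of -1.38 (SE 0.48, edgeR adjusted p = 0.192) did not pass. At day 21 it was 0.10 (SE 0.37, adjusted p = 0.930), with 5.28, 11.6 and 17.8 CPM against 12.4, 15.02 and 17.4 CPM.

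Of the regulators of mTORC1 and of ATF4, Ddit4 and Sesn2 did not pass in AT2 cells on either day, and Trib3, not tested at day 7 for low counts (2 to 4 UMIs per mouse), did not pass at day 21. Ddit4, which glucocorticoids and hypoxia can also induce, was 12.4 to 76.2 CPM in β1fl/fl and 50.3 to 104 CPM in β1AT2-KO mice at day 7 (log2 fold change 0.50, SE 0.34, edgeR adjusted p = 0.598), and 56.1 to 84.1 CPM against 75.1 to 99.1 CPM at day 21 (0.21, SE 0.18, adjusted p = 0.636). Sesn2 had a log2 fold change of -0.26 (SE 0.40, adjusted p = 0.879) at day 7 and 0.20 (SE 0.30, adjusted p = 0.808) at day 21. Trib3 was 13.2, 11.6 and 9.58 CPM in β1fl/fl and 7.96, 8.39 and 7.02 CPM in β1AT2-KO mice at day 21. These groups did not overlap, and the log2 fold change was -0.61 (SE 0.41, adjusted p = 0.510).

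Asns was not tested at day 7 for low counts and had a log2 fold change of -0.99 (SE 0.51, edgeR adjusted p = 0.357) at day 21, from 1 to 18 UMIs per mouse. Chac1 showed what a single cell can do to a sparse gene. The β1fl/fl AT2 gate of day 7 held 22 Chac1 UMIs in 2 of 119 cells, and 18 of them were in 1 cell, while the β1AT2-KO gate held 1 UMI in 355 cells. At day 21 there were 3 UMIs in 3 of 176 β1fl/fl cells and 22 UMIs in 19 of 1240 β1AT2-KO cells. The day 7 counts gave a call in the fit against endothelial cells (adjusted p = 0.00204) that was lost without β1fl/fl mouse 1 (adjusted p between 0.000801 and 0.360 over 13 alternatives). No fold change is given for it.

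Between cell types, 10 genes were tested at day 7 and 2 passed (Nupr1 and Chac1, beside 1.25% of all genes), and 8 were tested at day 21 and 2 passed (Nupr1 and Ppp1r15a, beside 2% of all genes). The filter on low counts took both cell types together in these fits. At day 7 Atf5, Trib3, Asns and Chac1 did not pass it in AT2 cells alone. At day 21 Nupr1, Atf5, Ddit3 and Sesn2 did not pass it in endothelial cells alone.

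**Figure D4:**
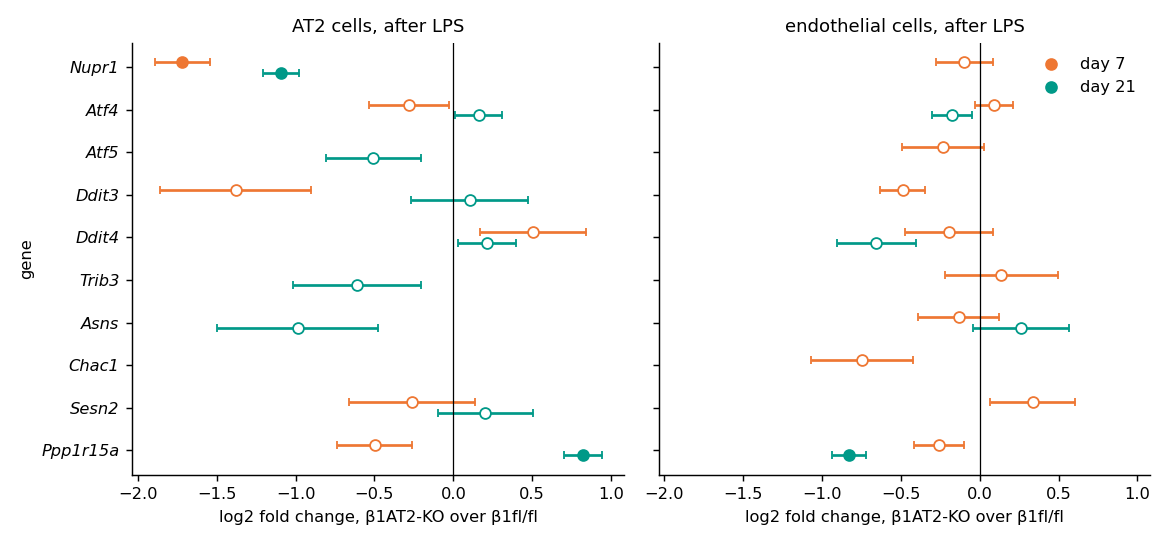
Log2 fold change of each gene, β1AT2-KO over β1fl/fl after LPS, with its SE (bars), in AT2 and endothelial cells at day 7 and day 21. Filled points have an edgeR adjusted p below 0.05, and genes without a point did not pass the filter on low counts. Nupr1 lies at -1.72 and -1.09 in AT2 cells, and Ppp1r15a at day 21 lies to the right of 0 in AT2 cells and to the left in endothelial cells.

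Outside AT2 cells few genotype differences passed. In endothelial cells none of 10 genes passed at day 7 by edgeR, beside 2.12% of all genes, and DESeq2 called none of the 10 either. By edgeR 2 of them, Chac1 and Ddit3, had an unadjusted p of 0.0440 and 0.00639. Under 0.05 there were 1849 of 11378 genes. At day 21, 1 of 4 tested passed (Ppp1r15a), beside 1.78% of all genes. In mesenchymal cells none of 6 passed at day 7 (0.102% of all genes) and none of 4 at day 21 (0.399% of all genes), by edgeR or by DESeq2. By edgeR 1 on each day had an unadjusted p under 0.05, beside 348 of 5866 genes at day 7 and 252 of 2003 at day 21. All 6 mesenchymal log2 fold changes of day 7 were negative, from -0.25 (Ddit4) to -0.82 (Ddit3), and Ppp1r15a there (-0.78, SE 0.33) had an unadjusted p of 0.0372. At day 21 Atf5 in mesenchymal cells had -1.49 (SE 0.41, unadjusted p = 0.00403, adjusted p = 0.230), from 15 and 24 hashtagged cells of β1AT2-KO and 26, 13 and 24 of β1fl/fl mice. Over all 165 and 331 gated cells the log2 ratio was -0.24 (147 against 174 CPM, counting interval -0.61 to 0.11).

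The last comparison set LPS against PBS within β1AT2-KO lungs at day 7, in endothelial cells, where enough cells were present. Nupr1 was higher after LPS, with 18.2, 22.6 and 25.3 CPM against 4.69, 3.16 and 5.27 CPM after PBS. No PBS mouse came near an LPS mouse, and the log2 fold change was 2.22 (SE 0.22, edgeR adjusted p = 0.000591). The share of endothelial cells with a Nupr1 UMI, thinned, was 3.56% after LPS and 0.626% after PBS. RNA of other cell types moved with it: Sftpc in endothelial cells was 2529 to 3857 CPM after LPS and 260 to 714 CPM after PBS, the 8 AT2 markers summed to 1130 and 255 CPM, and the 8 mesenchymal markers to 368 and 94.6 CPM. Nupr1 was 247 CPM in AT2 and 700 CPM in mesenchymal cells of the LPS library, and the part of free RNA in the endothelial difference was not tested.

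Atf4, Ddit3 and Ppp1r15a were lower in endothelial cells after LPS. Atf4 was 153, 162 and 127 CPM after LPS and 197, 228 and 201 CPM after PBS (log2 fold change -0.60, SE 0.11, edgeR adjusted p = 0.00572). Ddit3 was 13.7, 15.7 and 14.97 CPM against 21.3, 25.3 and 22.3 CPM (-0.73, SE 0.14, adjusted p = 0.00611). Ppp1r15a was 237, 325 and 273 CPM against 478, 503 and 361 CPM (-0.79, SE 0.15, adjusted p = 0.00779). In none of these did the groups overlap. Thus 4 of the 10 genes passed, beside 22.2% of all genes. Of 8 immediate early and heat shock genes that tissue dissociation can induce, 4 were also lower after LPS and none higher, and their part in the 3 differences was not tested. LPS against PBS could not be fitted in AT2 or mesenchymal cells, since the PBS mice had 2 to 9 hashtagged cells.

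The wider pathway was read from 10 lists of genes in AT2 cells, chosen with earlier results known. Beside each count of genes that passed stand 1.61% of all genes called at day 7 and 3.75% at day 21. Beside each count at an unadjusted edgeR p under 0.05 stand 623 of 5086 genes at day 7 and 1405 of 8807 at day 21. Among eIF2 kinases and eIF2B subunits, 5 of 11 were tested at day 7 and 11 at day 21, and none passed by edgeR (1 and 2 at an unadjusted p under 0.05). Of 11 aminoacyl-tRNA synthetases found, 7 and 11 were tested and again none passed, with 1 on each day at an unadjusted p under 0.05. Of 11 amino acid synthesis genes, 1 was tested at day 7 and passed (Cth, cystathionine γ-lyase, log2 fold change -1.66), and none of 3 passed at day 21. Of amino acid transporters, none of 3 passed at day 7 and 1 of 5 at day 21 (Slc1a5, a glutamine transporter, 0.49, adjusted p = 0.0397). At an unadjusted edgeR p under 0.05 were 1 of the 3 transporters at day 7 and 3 of the 5 at day 21. Of secreted and other outputs, none of 6 passed at day 7 and 1 of 6 at day 21 (Vegfa, 0.87, adjusted p = 0.00254). However, 5 of these 6 had an unadjusted p under 0.05 at day 7 (median log2 fold change -0.61) and 3 at day 21. Directions were mixed at day 7, where Vegfa was higher in β1AT2-KO AT2 cells (0.78, SE 0.22, edgeR adjusted p = 0.0972). Among mitochondrial stress genes, 1 of 5 passed at day 7 (the chaperonin gene Hspe1, -0.99) and none of 5 at day 21. Among glucocorticoid targets, 1 of 4 passed at day 7 (Zbtb16, -1.80) and none of 5 at day 21. The call was lost in 5 of 13 alternatives for Hspe1 and in 9 of 13 for Slc1a5, and Cth and Zbtb16 also lost theirs when any β1AT2-KO mouse was left out.

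A few genes of the neighbouring stress arms were higher in β1AT2-KO AT2 cells at day 21, namely Atf3, Hspa5 and Dnajb9. Atf3, the gene of an ATF4-induced repressor and immediate early factor, was 652, 670 and 732 CPM in β1fl/fl and 1825, 1645 and 1882 CPM in β1AT2-KO mice, without overlap (log2 fold change 1.26, SE 0.09, edgeR adjusted p = 7.86e-09). It was the 1 of 6 partner factor genes to pass that day, and none passed at day 7. Of 8 genes of the XBP1 and ATF6 arm, Hspa5, the main chaperone of the endoplasmic reticulum, and Dnajb9, its cochaperone, passed (0.72, adjusted p = 0.000132, and 0.77, adjusted p = 0.00679). Dnajb9 was 68.6, 49.3 and 71.2 CPM in β1fl/fl and 121, 133 and 105 CPM in β1AT2-KO mice. Of 8 immediate early and heat shock genes that dissociation can induce, 3 were higher (Egr1 0.52, Junb 0.48 and Fos 0.32), and their part in the difference of Atf3 was not tested. The Fos call was kept in 5 of 13 alternatives (adjusted p up to 0.150).

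At day 7 Dnajb9 was lower in β1AT2-KO AT2 cells, with 157, 74.1 and 157 CPM in β1fl/fl and 44.5, 60.7 and 44.5 CPM in β1AT2-KO mice (log2 fold change -1.50, SE 0.25, edgeR adjusted p = 0.00173; 0.0535 without β1fl/fl mouse 1). Egr1 was the 1 of 8 immediate early and heat shock genes to pass that day (-0.87, adjusted p = 0.0394), and the call was lost when any mouse but β1fl/fl mouse 2 was left out. Of these 8 genes, 7 had an unadjusted edgeR p under 0.05 that day, beside 623 of 5086 genes tested. Their median log2 fold change was -0.66. The signed log2 fold change at day 21 minus that at day 7 passed for Atf3 (1.36, adjusted p = 0.00264), Hspa5 (1.03, adjusted p = 0.00741), Dnajb9 (2.27, adjusted p = 4.26e-05) and Egr1 (1.39, adjusted p = 0.00509). This comparison was added after the data were seen, and 0.63% of all genes passed it. For each of these genes the fold change was negative at day 7 and positive at day 21. At day 7 Atf3 (-0.09) and Hspa5 (-0.31) did not pass. For Dnajb9 and Egr1 the fold change was smaller in size at day 21. Sex was confounded with genotype at day 7 and unbalanced between genotypes at day 21. The day 7 β1fl/fl mouse 2 had 13604 CPM of the club cell markers Scgb1a1, Scgb3a2 and Cyp2f2 in its AT2 gate, against 419 and 425 CPM in the 2 others. Its Nupr1 level (772 CPM) was close to theirs, and the part of club cell RNA in the day 7 differences was not tested.

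**Figure D5:**
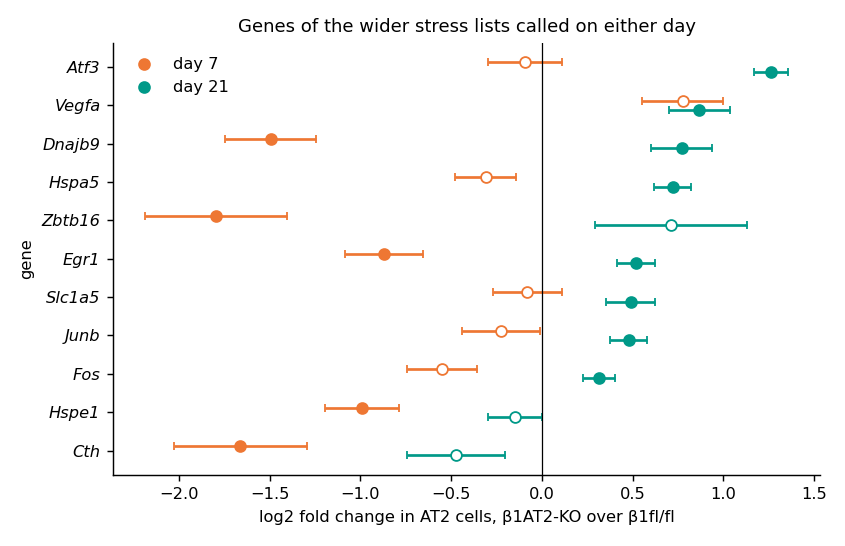
Log2 fold change in AT2 cells, β1AT2-KO over β1fl/fl after LPS, with SE (bars), for the genes of the wider lists that passed on either day. Filled points have an edgeR adjusted p below 0.05. Dnajb9 and Egr1 lie to the left of 0 at day 7 and to the right at day 21.

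Over 38 sums of mouse and cell type, the genes whose log2(CPM + 10) varied most like Nupr1, among 7141 genes with a mean of at least 20 CPM, were Gpx8 (Pearson r = 0.97), Cd63 (0.97), Fth1 (0.95), Echdc2 (0.95) and Slc1a5 (0.95). These points share libraries and largely reflect the cell type. Of the stress genes, Atf5 had 0.70, Ddit3 0.16, Ppp1r15a -0.30, Ddit4 -0.56 and Atf4 -0.71 over the same sums. Within the 12 AT2 sums alone, a set of points added after the data were seen, the nearest of 5445 genes were Fabp5 (0.95), 9530068E07Rik (0.95) and Scgb1c1 (0.94), with Atf5 at 0.78, Ppp1r15a at -0.15 and Atf4 at -0.12.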

How the data were processed

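Per the labels and the study's methods, reads were aligned by the authors to mm10 with Cell Ranger 3.1, and the deposited matrices hold raw UMI counts per gene and cell, without the background correction, cell filter or doublet removal used in the study. Submitters' processing notes also name Seurat 4.1.0. From these counts, cells were filtered and gated as stated. A cell was assigned to a mouse when 1 hashtag alone exceeded 4 times its background, and cells with several or no hashtags counted only in library values. No doublet caller was run. The gates require 0 UMIs of those of Epcam, Cdh5, Pecam1 and Col1a2 that mark other lineages, without a limit on Sftpc outside the AT2 gate. An alternative left out the 5% of cells with most UMIs. Kept libraries held 8360954 to 29128331 UMIs, with a median of 2219 to 5330 per cell. CPM are UMIs per 1000000 UMIs of the gated cells. Counts were summed per mouse (at least 10 cells) and tested with edgeR 4.0.16 (quasi-likelihood, TMM, filterByExpr, Benjamini-Hochberg over all genes, threshold 0.05). AT2 and endothelial differences were compared with the mouse as a block. The scripts were tested on simulated data. DESeq2 1.42.0, DESeq2 size factors, no filter, each mouse left out, a hashtag threshold of 8 times background and Sftpc gates of 2 and 10% were tried as alternatives. Members and lists were chosen with earlier results of these data known, so a call is not independent of that choice, and no p-value was adjusted over the list alone. Named genes were the 10 members, Itgb1, up to 4 genes per list and comparison that passed in AT2 cells, and the 5 genes most like Nupr1.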

Additional observations from a re-analysis of the deposited data

Results flagged for a closer look

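Differences in response that passed the test of the difference itself were as follows. In edgeR's interaction fit, Nupr1 differed between AT2 and endothelial cells in its genotype effect at day 7 (log2 difference -1.57, adjusted p = 1.43e-10) and at day 21 (-1.36, adjusted p = 0.0340). The first call was kept in 13 of 13 alternatives and the second in 5 of 13. Endothelial Nupr1 alone did not pass the filter on low counts at day 21. Ppp1r15a differed between the same cell types at day 21 (1.62, adjusted p = 2.32e-13), with each β1AT2-KO mouse above each β1fl/fl mouse in AT2 cells and below in endothelial cells, and the call was kept in 13 of 13 alternatives. Its signed genotype effect in AT2 cells also differed between day 21 and day 7 (1.33, adjusted p = 0.0213), in 14 of 19 alternatives. Chac1 differed between cell types at day 7 (adjusted p = 0.00204), where 18 of 22 UMIs came from 1 β1fl/fl cell. In AT2 cells alone Chac1 did not pass the filter on low counts. With 3 mice a group, no single outlying mouse could be tested for.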

How the results depend on the processing

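Nupr1 kept its direction and its call in AT2 cells in 13 of 13 alternatives on each day (log2 fold change -1.82 to -1.50 at day 7 and -1.17 to -0.95 at day 21), as did Ppp1r15a at day 21 in AT2 cells (0.76 to 0.90), and no call changed sign. Over single genes and comparisons, 1646 values kept their side of the threshold, 74 lost and 29 gained a call. The counts of genes called varied more, and the cause was not tested. In AT2 cells at day 7, 82 genes were called, against 50 with DESeq2, 154 without the filter on low counts and 48 with the stricter hashtag threshold. The stress genes called there were 1, against 3 without the filter and 2 with the stricter hashtag. In endothelial cells 241 genes at day 7 became 394 without the 5% of cells with most UMIs, and 129 at day 21 became 70 with DESeq2 and 319 without the filter, where 2 stress genes passed in place of 1. In mesenchymal cells 6 genes at day 7 became 13 with DESeq2 and 195 without the filter, and 8 at day 21 became 52 without the filter and 4 without the 5% of cells with most UMIs. For the difference between AT2 and endothelial cells, DESeq2 called 27 in place of 145 genes at day 7 and 48 in place of 172 at day 21, with 1 in place of 2 stress genes on each day, and at day 21 the fits without the filter and with the stricter hashtag also called 1. For the difference between days, 40 genes became 95 without the filter, with 2 stress genes in place of 1. With Sftpc at 10% or more, 15 genes were called higher and 13 lower, and 0 of them were stress genes.

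With each mouse left out in turn, genes called ranged from 38 to 111 in AT2 cells at day 7 and 193 to 314 at day 21, from 67 to 419 and 42 to 179 in endothelial cells, from 3 to 30 and 1 to 16 in mesenchymal cells, from 1541 to 2519 for LPS against PBS, from 72 to 117 for AT2 against endothelial cells at day 7 and from 14 to 50 between days. Stress genes called ranged from 1 to 2 in AT2 cells at day 7 and endothelial cells at day 21, from 1 to 3 in both fits of AT2 against endothelial cells, and from 0 to 1 between days. Mice could not be paired between groups, because each group is 1 sample and hashtag numbers of different groups belong to different mice. Only the fits of AT2 against endothelial cells paired values, within each mouse. LPS against PBS was not run in AT2 or mesenchymal cells, nor the stricter hashtag threshold in mesenchymal cells at day 21. Depth limits Chac1, Trib3, Asns and Atf5 most, since many mice had fewer than 10 UMIs of them.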
